A study of Rattus norvegicus with 6 samples.

Results

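The 10 genes followed here belong to the contractile and intermediate filament cytoskeleton and were read in crushed and intact rat sciatic nerves. They are the smooth muscle actins Acta2 and Actg2, the actin-binding proteins Tagln, Cnn1 and Cnn2, the myosin regulatory light chain Myl9, the tropomyosins Tpm1 and Tpm2, and the intermediate filament proteins Des and Vim. The genes were chosen by symbol, and each of the 10 matched 1 row of the 30957 Ensembl genes counted. RNA-seq covered sciatic nerves of Sprague Dawley rats, 3 of them crushed and 3 from the uninjured opposite side. The methods describe adult males with no treatment other than the crush, and RNA from the stumps proximal to the lesion at 4 days postinjury (dpi), whereas the labels give neither age nor time. The text of the study places the incision on the right and the crush on the left, while the series design puts every lesion on the right. The comparison asked whether these genes differed between crushed and intact nerves, and how much of the contractile programme the nerves contained.

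Smooth muscle cells and myofibroblasts, the contractile fibroblasts of healing wounds, build bundles of actin and myosin. Acta2 is the actin most often used to identify them, while tropomyosins, calponins and transgelin bind along the filaments and the phosphorylated light chain turns the myosin on. Des is the intermediate filament of muscle, and Vim that of mesenchymal cells and of immature Schwann cells. In a peripheral nerve the contractile genes are known mainly from the walls of blood vessels, and Vim from Schwann cells, fibroblasts and endothelium. Many of these genes are transcribed through serum response factor (SRF), which acts with myocardin or with the actin-sensing coactivator encoded by Mkl1.

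The total count per nerve lay between 24844371 and 27139360, so that 3 counts, taken as the smallest level distinguishable from 0, corresponded to 0.110 to 0.121 normalized CPM (counts scaled to library size with TMM factors). The labelled tissue was checked against its defining markers, and several of those of Schwann cells were absent or nearly so. Among the Schwann cell markers 4 passed the filter described below, while the myelin gene Mbp and the lineage factor Sox10 had at most 1 count in any nerve and Cdh19 had 0, whereas Pmp22 had between 821 and 968. Of the 4, the neuregulin receptor gene Erbb3 fell in crushed nerves by 0.59 on the log2 scale (adjusted p = 0.0222). The proliferation gene Mki67 had between 37037 and 43837 counts. These marker levels are in conflict with the label of nerve tissue in all 6 libraries, which cells the RNA came from was not tested, and a crushed or intact nerve means here a library that carries this label. Fewer cells of a type and less RNA per cell cannot be told apart in such bulk samples.

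The contractile set split into genes that were abundant and genes that were almost absent, with the same split in crushed and intact nerves. FPKM values, which the authors scaled to gene length and library size, were used to compare levels between genes. Vim ranked 21 of 30957 genes by mean FPKM, Cnn2 251, Tpm1 629, Tpm2 1156 and Tagln 5657. Myl9 and Des were around 1 FPKM or lower, Cnn1 and Acta2 did not exceed 0.134 FPKM in any nerve, and Actg2 was listed at 0 in every nerve. The FPKM ranges of neighbours in this order did not overlap in either group, except those of Cnn1 and Acta2 in both groups and those of Acta2 and Actg2 in the crushed nerves. The 10 genes together took between 0.305% and 0.315% of the counts of an intact nerve and between 0.292% and 0.297% of those of a crushed nerve. Most of this was Vim. Vim alone took 0.223% to 0.235% of the counts of an intact nerve and 0.220% to 0.222% of those of a crushed nerve.

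**Figure D1:**
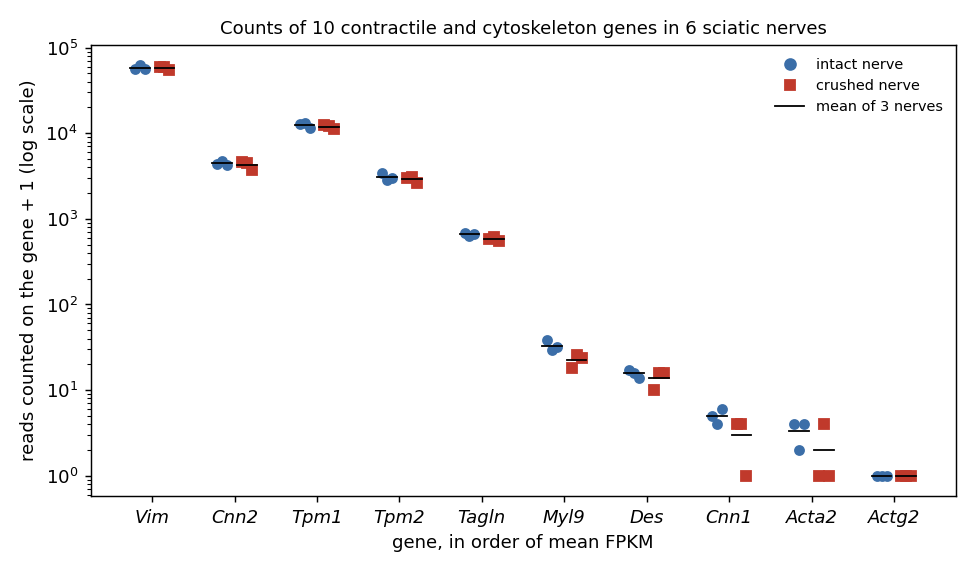
Reads counted on each of the 10 genes in 3 intact (circles) and 3 crushed (squares) nerves, plus 1, on a log scale, with the mean of each group as a line and the genes in order of mean FPKM. Vim sits between 54725 and 62362 counts in the 6 nerves, Acta2 between 0 and 3, and Actg2 at 0 throughout.

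Of the 10 genes, 7 passed edgeR's filter on low counts, and 0 of these 7 had an adjusted p under 0.05 in the quasi-likelihood test, against 3.12% of the 12393 genes tested (1.65% lower and 1.47% higher in crushed nerves). Of the 7, Tagln, Tpm1 and Myl9 (3 genes) had an unadjusted p under 0.05, all with lower values in crushed nerves, where 9.5% of the genes tested were lower at that limit. A DEmRNA by the limits of the study's methods has an absolute log2 fold change above 1 with p under 0.001, which 0.282% of the genes tested and 0 of the 7 met. DESeq2 and limma also left 0 of the 7 with an adjusted p under 0.05, with 2 genes at an unadjusted p under 0.05 by DESeq2 and 3 by limma. The log2 fold change was below 0 for 7 of 7, with a median of -0.14 (range -0.62 to -0.067), while 50.6% of the genes tested were below 0 and their median was -0.0017. In 5 of the 7, namely Tagln, Cnn2, Myl9, Tpm1 and Vim, all crushed nerves lay below all intact nerves in normalized CPM, a pattern held by 12.2% of the genes tested. For 7 of 7 the highest of the 6 nerves was an intact nerve and the lowest a crushed nerve, which was so for 35.2% of the genes tested. The signs of the 7 genes rest on the same 6 libraries and are not independent of each other.

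The smooth muscle actins, from which contractile stress fibres of myofibroblasts are built, were at the limit of detection. Acta2, on chromosome 1 from 252537615 to 252550394 (coordinates of the deposited table, for which the submitters' processing notes list Rnor_6.0), was counted 3, 1 and 3 times in intact nerves 1 to 3, and 0, 3 and 0 times in crushed nerves 1 to 3. No nerve exceeded 3 counts, so a difference in Acta2 was not detectable at this depth and no fold change is given. Actg2, the enteric smooth muscle actin (chromosome 4, 115215060 to 115239723), was not counted in any of the 6 nerves. The 0 counts of each nerve allow a level of up to 3 counts per nerve. The actins have nearly the same coding sequence. How reads that fit several of them were assigned is not given in the sources used here. The split of counts between Acta2, Actg2 and the cytoplasmic actins Actb and Actg1 is therefore uncertain.

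Among the actin-binding proteins, the smooth muscle calponin was nearly as scarce as Acta2 and the other calponin was among the abundant genes. Cnn1, on chromosome 8 from 23113048 to 23121761, was counted 4, 3 and 5 times in intact nerves 1 to 3, against 3, 3 and 0 times in crushed nerves 1 to 3. The sums of 12 and 6 counts gave a ratio of crushed to intact of 0.486, with a 95% exact binomial interval from 0.150 to 1.40 that covers counting error only. Cnn2, a calponin of many non-muscle cells on chromosome 7 from 12782556 to 12787752, stood at 171, 179.5 and 173 normalized CPM in intact nerves 1 to 3, against 168, 167 and 147 in crushed nerves 1 to 3. The groups did not overlap, although crushed nerves 1 and 2 were closer to intact nerve 1 than to crushed nerve 3. The log2 fold change of Cnn2 was -0.12 (SE, the standard error, 0.0550, 95% interval -0.24 to 0.0024, adjusted p = 0.321), which missed the threshold, and without crushed nerve 3 it was -0.057.

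Transgelin, an early marker of smooth muscle differentiation that crosslinks actin, showed the smallest p of the set. Tagln, on chromosome 8 from 50222896 to 50231357, stood at 26.9, 23.7 and 27.1 normalized CPM in intact nerves 1 to 3, against 21.4, 22.6 and 21.8 in crushed nerves 1 to 3. All 3 crushed nerves lay below all 3 intact nerves, with intact nerve 2 close to the crushed nerves. Means were 25.9 ± 1.96 and 22.0 ± 0.643 (SD, n = 3 nerves each), which corresponds to -0.24 in log2 fold change (SE 0.0737, 95% interval -0.40 to -0.075, unadjusted p = 0.00828 in edgeR). Over all genes tested the adjusted p was 0.129, and the exact permutation test of Tagln alone gave p = 0.1 (two-sided), the smallest that 3 nerves against 3 allow.

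Myl9 encodes the regulatory light chain of smooth muscle and non-muscle myosin and lies on chromosome 3 from 152857592 to 152863960. It was counted 37, 28 and 31 times in intact nerves 1 to 3, against 17, 25 and 23 times in crushed nerves 1 to 3. The groups did not overlap, and crushed nerve 1 was the lowest. Normalized values were 1.26 ± 0.201 CPM in intact and 0.820 ± 0.171 CPM in crushed nerves (SD, n = 3 each), and the log2 fold change was -0.62 (SE 0.248, adjusted p = 0.252). Its 95% interval, from -1.16 to -0.068, was the widest of the set after that of Des, the other gene of few counts.

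The tropomyosins lie along the actin filament and set which myosins and severing proteins reach it. Tpm1, on chromosome 8 from 72814740 to 72842228, stood at 506, 492.5 and 462 normalized CPM in intact nerves 1 to 3, against 454, 446 and 446 in crushed nerves 1 to 3. The crushed nerves lay together just under intact nerve 3. Its log2 fold change was -0.12 (SE 0.0420, 95% interval -0.21 to -0.025, adjusted p = 0.191). Tpm2, on chromosome 5 from 59016622 to 59025631, stood at 135, 106 and 122 normalized CPM in intact nerves 1 to 3, against 111, 112 and 106 in crushed nerves 1 to 3. Intact nerve 2 lay among the crushed nerves, and the log2 difference in Tpm2 of -0.14 (SE 0.0733, adjusted p = 0.368) was within the spread of the intact nerves, whose coefficient of variation was 11.7%. Without intact nerve 2 the log2 fold change of Tpm2 was -0.23, and without intact nerve 1 it was -0.057. Both genes make muscle and non-muscle isoforms by splicing, and counts per gene do not separate these.

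Of the intermediate filament genes, Vim was by far the more abundant. On chromosome 17 from 80882666 to 80891212, it stood at 2249, 2363 and 2276 normalized CPM in intact nerves 1 to 3, against 2184, 2210 and 2184 in crushed nerves 1 to 3. All crushed nerves lay below all intact nerves, by a small margin, and the fold was 0.955 (95% interval 0.907 to 1.01, adjusted p = 0.371). The log2 fold change of Vim was -0.067, and -0.042 without intact nerve 2. Des, which ties the contractile units of muscle together and lies on chromosome 9 from 82556573 to 82564294, was counted 16, 15 and 13 times in intact nerves 1 to 3, against 9, 15 and 15 times in crushed nerves 1 to 3. Crushed nerve 1 was low and the other crushed nerves matched the intact ones. The log2 fold change of Des was -0.23 (95% interval -0.93 to 0.47, adjusted p = 0.779), and -0.0013 without crushed nerve 1, -0.15 without intact nerve 1 and -0.38 without crushed nerve 3.

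**Figure D2:**
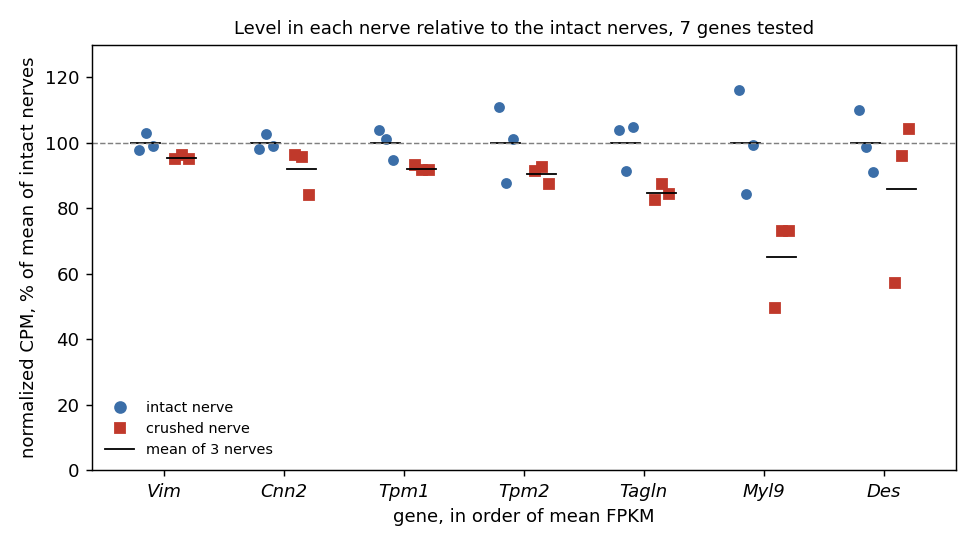
Normalized CPM of the 7 genes that passed the filter, in each nerve, as a percentage of the mean of the 3 intact nerves (circles intact, squares crushed, lines the mean of 3 nerves, dashed line 100%). The crushed nerves lie between 95.1% and 96.2% for Vim, between 82.5% and 87.4% for Tagln and between 49.5% and 73.2% for Myl9, where the intact nerves spread from 84.3% to 116%.

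In the actin, calponin, transgelin and light chain families, the genes used widely outside muscle were the abundant ones. Actb, the cytoplasmic beta actin, was at 3406 ± 233 FPKM in intact and 3235 ± 93.3 in crushed nerves (SD, n = 3 each), and cytoplasmic Actg1 at 47.5 ± 2.56 and 56.7 ± 2.22. The striated muscle actin Actc1 had 0 counts in every nerve, and Acta1 had 0 in all but intact nerve 2, with 6 counts, and crushed nerve 1, with 1. Cnn2 and Cnn3 were at 263 ± 6.86 and 145 ± 6.24 FPKM in intact nerves, where Cnn1 was at 0.105 ± 0.0294. Tagln2 exceeded Tagln, and the light chain gene Myl12a exceeded Myl9, in each of the 6 nerves. The other tropomyosin genes, Tpm4 at 393 ± 33.9 FPKM and Tpm3 at 164 ± 9.58 in intact nerves, were each above Tpm1 at 129 ± 5.57 and Tpm2 at 80.8 ± 9.33. Vim exceeded Des between 4168-fold and 7765-fold in FPKM, with between 9 and 16 counts of Des per nerve. Not every non-muscle gene was counted: Myh9, the heavy chain of non-muscle myosin, and Krt18 were listed at 0 in all 6 nerves, while Myh10 had between 8921 and 10422 counts. Whether a row at 0 reflects missing RNA or reads that were not assigned cannot be told apart here.

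**Figure D3:**
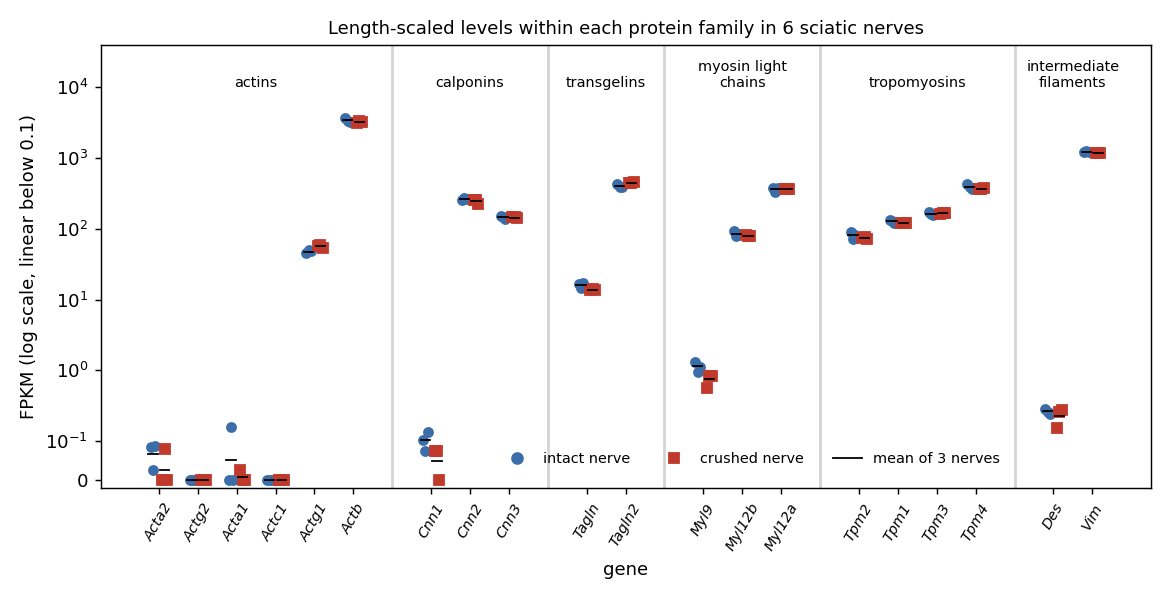
FPKM of the genes of 6 protein families in 3 intact (circles) and 3 crushed (squares) nerves, on an axis that is logarithmic above 0.1 and linear below, with group means as lines. Apart from the tropomyosins, in each family the genes known mainly from smooth or striated muscle (Acta2, Actg2, Acta1, Actc1, Cnn1, Tagln, Myl9, Des) lie below the genes Actb, Actg1, Cnn2, Cnn3, Tagln2, Myl12a, Myl12b and Vim.

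Ratios between relatives are free of library scaling, and 10 of them were compared between crushed and intact nerves. The ratio of Tagln2 to Tagln was 25.1 ± 1.95 in intact and 32.6 ± 1.40 in crushed nerves (SD, n = 3 each), and the groups did not overlap. Myl12a to Myl9 stood at 322 ± 30.9 and 504 ± 116, Myl12b to Myl9 at 75.9 ± 5.39 and 110.3 ± 28.4, and Tpm3 to Tpm1 at 1.28 ± 0.0432 and 1.39 ± 0.0451, again without overlap. In each of these 4 the exact permutation test gave p = 0.1, the smallest it can give, and an adjusted p of 0.25 over the 10 ratios. An adjusted p under 0.05 was therefore not possible. The 4 ratios are taken to Tagln, Myl9 or Tpm1, already described as lower without overlap, so they restate those values at least in part. Tagln2 itself stood higher in crushed nerves without overlap (log2 fold change 0.14, adjusted p = 0.141 in edgeR), which also enters its ratio to Tagln. Of the genes tested, 23% had groups without overlap in either direction. Both light chain ratios share Myl9, which had between 17 and 37 counts per nerve. The other 6, among them Cnn3 to Cnn2 and Tpm1 to Tpm2, overlapped between groups.

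A wider list of 45 other genes of actin, myosin, focal adhesions and intermediate filaments was read in the same fit. It was chosen by function, and 42 of its genes were in the table and 35 passed the filter. At an adjusted p under 0.05, 2 rose and 2 fell, or 4 of 35 against 3.12% of all genes tested, and the median log2 fold change was -0.037. Of the 35, 0 were DEmRNAs and 9 had an unadjusted p under 0.05 in edgeR, against 16.2% of all genes tested. Vcl, the vinculin that links actin to focal adhesions, fell from 1297, 1395 and 1348 normalized CPM in intact nerves 1 to 3 to 1104, 1119 and 1126 in crushed nerves 1 to 3, or -0.27 in log2 fold change (SE 0.0375, adjusted p = 0.00245). The groups were far apart compared with the spread within them. Fhl2, a LIM protein that shuttles between focal adhesions and the nucleus, rose from 20.2, 21.7 and 21.9 to 28.7, 29.8 and 29.4 normalized CPM, or 0.46 in log2 fold change (SE 0.0642, adjusted p = 0.00248). Its crushed nerves were all above its intact nerves.

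The other calls of the wider list were close to the threshold. In log2 fold change the actin crosslinker Actn4 stood at -0.21 (SE 0.0495, adjusted p = 0.0459) and Actg1 at 0.24 (SE 0.0561, adjusted p = 0.0483). The value of Actg1 may also depend on how reads shared between actins were assigned. Actn4 lost its call when intact nerve 1, intact nerve 2 or any crushed nerve was left out (adjusted p from 0.0533 to 0.171), and Actg1 when any nerve was left out (0.0637 to 0.208). Actn4 also lost its call with RLE factors (adjusted p = 0.0511) and with limma on log2(FPKM + 0.1) (0.148), and Actg1 without the filter on low counts (0.0552) and with limma (0.0542). With the replicate number as a block, Actg1 lost its call as well (adjusted p = 0.0768). On the same scale Tagln2 stood at 0.14 (adjusted p = 0.141), Actb at -0.091 (adjusted p = 0.395), Tpm4 at -0.10 (adjusted p = 0.414), Cnn3 at -0.034 (adjusted p = 0.751) and Tpm3 at 0.0010 (adjusted p = 0.994). Without intact nerve 1, Actb was at -0.030 and Tpm4 at -0.032, and without intact nerve 3 Tpm4 was at -0.16. Among the myosins and their regulators 0 of 9 genes tested had an adjusted p under 0.05 and 0 had an unadjusted p under 0.05 in edgeR, against 3.12% and 16.2% of all genes tested. They included Myh11, the heavy chain of smooth muscle, a long transcript with between 201 and 252 counts. In FPKM it was low, at 1.04 to 1.38, while Acta2 and Cnn1 did not exceed 0.134.

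**Figure D4:**
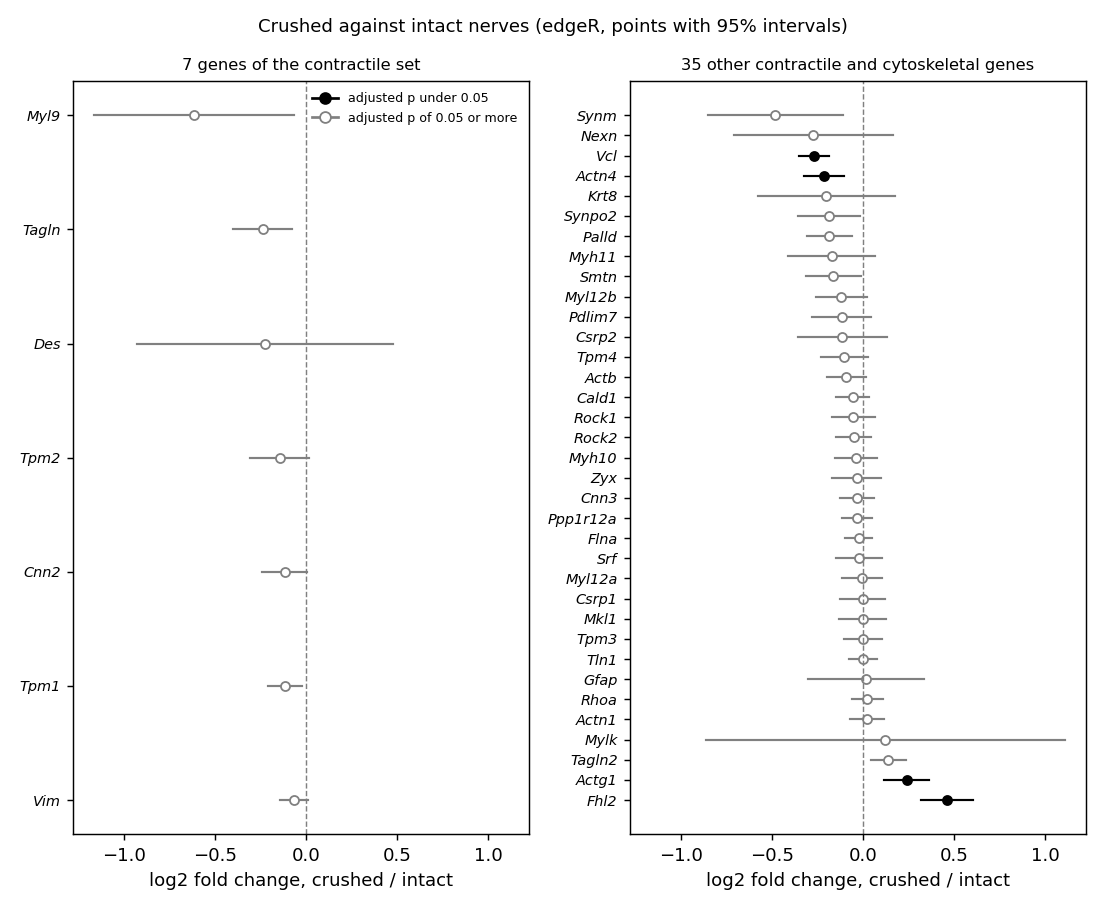
Log2 fold change of crushed against intact nerves with its 95% interval for the 7 genes of the contractile set (left) and 35 other contractile and cytoskeletal genes (right), from edgeR's quasi-likelihood test. Filled points have an adjusted p under 0.05: on the left there are 0, and on the right Vcl (-0.27) and Actn4 (-0.21) lie below 0 and Actg1 (0.24) and Fhl2 (0.46) above.

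The regulators of the programme were present in part. Srf was at 19.8 ± 1.48 FPKM in intact and 19.7 ± 0.268 in crushed nerves (SD, n = 3 each), with a log2 fold change of -0.021 (95% interval -0.15 to 0.11, adjusted p = 0.895). Mkl1, which carries the actin signal to SRF, lay between 10.5 and 11.8 FPKM in the 6 nerves, with a log2 fold change of -0.0013 (95% interval -0.13 to 0.13, adjusted p = 0.994). Myocd, the myocardin of smooth and cardiac muscle, was not counted in any intact nerve and was counted 0, 2 and 2 times in crushed nerves 1 to 3, under the floor of 3 counts.

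SRF binds the CArG box. The RefSeq promoter windows of the GRCr8 assembly, 250 bases before to 50 after the start, were searched for its exact consensus. This is CC, then 6 bases that are each A or T, then GG. Both strands were covered, as a match on one strand is also a match on the other. A box means here an exact match, and sites that differ from the consensus at any base were not counted. Windows were found for 8 of the 10 genes, without Tagln and Myl9. Of these 8, only Cnn2 held a box, against 1.64% of the 33469 windows of the table and 1.41% of the 9471 windows of genes tested. In the wider list 6 of 46 windows held one, in Actg1, Fhl2, Srf itself and the muscle actins Acta1 and Actc1, which had at most 6 and 0 counts in any nerve. The matches in Cnn2, Actg1 and Fhl2 are shown. Cnn2 is the one gene of the set with a box. Actg1 and Fhl2 were picked as the genes of the wider list that rose at an adjusted p under 0.05, Actg1 close to that threshold. Cnn2 stood at -0.12 in log2 fold change and Srf, which also held a box, at -0.021. Whether a box goes with a change was not tested. They run 5′ to 3′ on the strand of the gene, with the box in capitals.
Cnn2, chr7:10370364-10370393, minus strand: cgcttccacgCCTTATAAGGgcatttgccc
Actg1, chr10:106121022-106121051, minus strand: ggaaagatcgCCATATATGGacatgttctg
Fhl2, chr9:52954616-52954645, minus strand: catttagagaCCAAAAATGGcttgcaggag
Fhl2 at another start, chr9:52923365-52923394, minus strand: gcgcgtgtgtCCTTATATGGtcaaatgact
The box begins 71 bases before the start in Cnn2, 90 in Actg1, and 95 and 58 before the 2 starts of Fhl2. A match describes letters and not binding. The windows without one say only that this exact motif is not within them, and they may hold SRF sites of other sequence.

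Markers of cells that could carry the contractile genes were read in the same fit. Of 8 markers of vascular smooth muscle and pericytes 3 passed the filter. Of these, Cspg4, a surface proteoglycan of pericytes and of other progenitor cells, fell by 0.35 on the log2 scale (SE 0.0423, adjusted p = 0.00103). Myh11, at -0.17 (adjusted p = 0.467), and Mcam, at -0.15 (adjusted p = 0.661), missed the threshold. The summed level of the 8 was 187 to 204 normalized CPM in intact and 154 to 156 in crushed nerves, nearly all of it Cspg4. Rgs5 and Kcnj8 were at 0 in every nerve, and Notch3, Abcc9 and Myocd did not exceed 2 counts. The fibroblast markers did not move together. Of 8, 3 passed the filter, and Col1a1, a chain of type I collagen, fell by 0.69 on the log2 scale (SE 0.0788, adjusted p = 0.000662). The growth factor receptor gene Pdgfra stood higher in crushed nerves, at 0.19 in log2 fold change (adjusted p = 0.166), and Thy1 lower, at -0.23 (adjusted p = 0.0552). The summed level of the 8 was 185 to 198.5 normalized CPM in intact and 162.5 to 181 in crushed nerves, with Col1a2, Dcn, Lum and Postn at 0 in every nerve. The part of these cell types in the lower values of the contractile set was not tested. Of 6 skeletal muscle markers with a row only Tnnt3 passed the filter, and Ckm, Tnni2 and Myog were at 0. Tnnt3 stood higher in crushed nerves, at 1.03 in log2 fold change (95% interval 0.26 to 1.81, adjusted p = 0.166). It had only 7 to 26 counts per nerve. The summed level of the 6 was 0.395 to 0.682 normalized CPM in intact and 0.769 to 0.958 in crushed nerves. Of 8 macrophage and leukocyte markers 2, Csf1r and Cd68, passed the filter. In edgeR 0 of the 2 had an adjusted or an unadjusted p under 0.05, against 3.12% and 16.2% of all genes tested. The 95% intervals in log2 fold change were wide, from -0.52 to 0.64 for Csf1r and from -0.35 to 0.78 for Cd68. The summed level of the 8 was 1.93 to 3.11 normalized CPM in intact and 2.42 to 3.15 in crushed nerves, and Ptprc, Adgre1 and Cd163 were at 0. The 5 endothelial markers summed to 4.62 to 5.49 normalized CPM in intact and 3.77 to 5.08 in crushed nerves. Of these, 3 passed the filter and 0 had an adjusted p under 0.05, against 3.12% of all genes tested. Tek stood lower in crushed nerves, at -0.66 in log2 fold change, with an unadjusted p under 0.05 in edgeR (adjusted p = 0.0874). Kdr and Vwf stood higher, at 0.42 (adjusted p = 0.547) and 0.495 (adjusted p = 0.494).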

How the data were processed

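RNA from 3 crushed and 3 intact sciatic nerves was sequenced, and the authors deposited raw counts per Ensembl gene and nerve beside FPKM values that the authors scaled by gene length and library total. The submitters' processing notes list HISAT2, StringTie 1.3.0 and Rnor_6.0, with no roles, and the counting rule, the strand setting and the treatment of reads with several matches are not given in the sources used here. According to the methods rRNA was removed and the RNA digested with RNase R, an exonuclease that attacks linear transcripts. The labels give a column kit only, so it is not known which RNA was sequenced. The 12 value columns were matched to nerves by title, and 0 others were present.

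All 30957 genes entered the analysis. Genes were kept with edgeR's expression filter (12393 genes), normalized with TMM and compared with edgeR's quasi-likelihood test without a block (edgeR 4.0.16, limma 3.58.1, R 4.3.3), with Benjamini-Hochberg adjustment over all genes tested. Standard errors and 95% intervals came from the test statistic. DEmRNA limits were those of the study's methods, with p read as unadjusted. A floor of 3 counts covers counting error only. Exact permutation tests used log2(CPM + 0.5). Nerves of a group differed by more than sampling noise (chi-square per degree of freedom 3.27 to 11.8 over genes with at least 10 counts in a pair), so each counted as 1 sample. The series design speaks of 3 biological replicates and the labels say no more about the animals, so p-values measure the spread between these samples.

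Of the wider list, the genes named are those with an adjusted p under 0.05, the nearest relatives of the 10 genes and the SRF regulators, and of the marker lists those with the lowest and highest counts. Genes named beyond this rule (Myh9, Krt18, Myh10, Myh11, Myl12a, Myl12b and marker genes that fell, were at 0 or passed the filter) were chosen after their values were seen. The 10 genes, the lists and the rules were chosen with earlier results of these data known. Alternatives were the replicate block, RLE factors, DESeq2 1.42.0, no filter, limma on log2(FPKM + 0.1) and on log2(FPKM + 1), normalization without the contractile genes, and each nerve left out. The calculations were tested on simulated data. Nes, Myl6 and Mkl2 of the wider list and Pecam1, Myh2 and Myh4 of the markers had no row in the table. Protein sequences were not used here, and 1 marker is not reported here.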

Additional observations from a re-analysis of the deposited data

How the results depend on the processing

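Of the 10 contractile genes, 0 had an adjusted p under 0.05 and 0 were DEmRNAs under the 13 alternatives, and 0 were DEmRNAs with no limit on the fold change or with the adjusted p in place of p. The 7 tested genes kept a log2 fold change below 0 in each of the 13, with Tagln between -0.30 and -0.20 (adjusted p 0.0774 to 0.362) and Myl9 between -0.72 and -0.29, the latter with limma on log2(FPKM + 1), which understates low genes. The median log2 fold change of all genes lay between -0.0041 and 0.016 over the settings. Leaving out single nerves kept the 7 between -0.72 and -0.0013.

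The wider list had 4 genes with an adjusted p under 0.05, and 2 (1 higher, 1 lower) with limma on log2(FPKM + 0.1) and 2 with limma on log2(FPKM + 1). With one nerve left out it had between 2 and 3, with 2 without intact nerve 2 or without any of the 3 crushed nerves. With RLE factors it had 3 (without Actn4) and with no filter 3 (without Actg1). Vcl and Fhl2 were called in each alternative. Tagln2 passed the threshold without intact nerve 1 alone (0.19, adjusted p = 0.00961, against up to 0.349 elsewhere). Sign changes occurred in genes near 0. Cnn3 was between -0.067 and 0.0012 and Srf between -0.054 and 0.0505 (0.0505 without intact nerve 1) with one nerve left out, and Tpm3 between -0.029 and 0.058. Mkl1 was 0.00039 with the replicate block, 0.0012 with RLE factors, 0.0012 with DESeq2, 0.00092 with no filter, 0.018 and 0.016 with limma (pseudocounts 0.1 and 1), and between -0.030 and 0.063 with one nerve left out. Why these values moved was not tested.

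With the replicate number as a block (paired analysis), 0 of the 7 genes and 3 of the wider list had an adjusted p under 0.05, the latter without Actg1. Same-numbered nerves had correlations of their deviations between -0.015 and 0.076, so the numbers were not taken as pairs. The intact nerves were contralateral, so both groups can come from the same rats, and the labels do not say which nerves share an animal. The main test leaves any such sharing out, and the low correlations do not make the groups independent. Fold changes of genes with fewer than 40 counts a nerve, Myl9 and Des, are limited by depth.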
